A study of Mus musculus with 6 samples.

Results

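The genes examined here encode a set of neuropeptides and their receptors in the mouse pre-limbic cortex (PLc), which lies in the medial prefrontal cortex. They are 8 of the 37620 genes in the deposited table: the tachykinin precursors Tac1 and Tac2 and the receptors Tacr1 and Tacr3, the thyrotropin-releasing hormone precursor Trh and its receptor Trhr, and the prokineticin Prok2 and its receptor Prokr2. Each was found by its symbol. The 8 genes were selected on peptide family and chosen by their normalized counts in these same saline and ketamine-treated mice, whose differences had been seen beforehand, so the values below are a description and no p-value is given for them. RNA was sequenced from the PLc of 3 saline mice, numbers 1, 6 and 10, and 3 ketamine-treated mice, numbers 3, 5 and 9, with a library for each mouse. All were C57Bl/6 mice, labelled as 9 weeks of age, and male by the methods of the study. The ketamine-treated mice received 30 mg/kg of ketamine, an antagonist of the NMDA receptor, by intraperitoneal injection on 5 consecutive days, the saline mice received vehicle in the same way, and tissue was dissected 2 days after the last injection.

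Tachykinins, thyrotropin-releasing hormone (TRH) and prokineticins are small secreted peptides that signal through G protein-coupled receptors, which raise intracellular calcium mainly through Gq and phospholipase C. Tac1 gives rise to substance P, the preferred ligand of the Tacr1 receptor, and to neurokinin A, whereas Tac2 gives rise to neurokinin B, the preferred ligand of Tacr3. Tac1 is abundant in neurons of the striatal direct pathway. TRH is best known as the hypothalamic peptide that drives thyrotropin release, and neurons elsewhere in the brain make it too. Prok2 and Prokr2 are known for guiding neuroblasts to the olfactory bulb and for carrying the output of the circadian clock.

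Depth was similar across mice, between 26273436 and 32643726 reads counted on genes per library. The values are normalized counts, namely reads scaled by the size factor of the library, and 1 read was worth between 0.906 and 1.10 of them. Markers of neighbouring regions differed between these libraries. The summed level of 13 striatal markers was 73554, 38195 and 11401 normalized counts in ketamine-treated mice 3, 5 and 9, against 10443 to 13050.5 in saline mice. That of 11 olfactory bulb markers was 17025, 11952 and 28757 in ketamine-treated mice 3, 5 and 9, against 4603 to 6878 in saline mice. That of 9 markers of cortical excitatory neurons, the defining cells of the labelled tissue, was 30492, 53534 and 42748 in ketamine-treated mice 3, 5 and 9, against 45175 to 67948 in saline mice. None of the markers in these 3 lists was at 0 in all mice. In tissue RNA, more cells of a type and more RNA per cell cannot be told apart.

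Of the 8 genes, 4 lie on chromosome 6 of mm9. Tac1 (ENSMUSG00000061762) extends from 7505071 to 7512973 on the plus strand, Tacr1 (ENSMUSG00000030043) from 82352328 to 82510097 on the plus strand, Trh (ENSMUSG00000005892) from 92192055 to 92194644 on the minus strand and Prok2 (ENSMUSG00000030069) from 99661293 to 99676386 on the minus strand. Prok2 overlaps the gene Gm16748 on the other strand, which shares 0 exon bases with it and had a mean of 7.67 normalized counts. The annotation and strand setting of the counting are not given. With exons other than these, reads of the overlapping genes may not have been told apart. GENCODE annotates no overlapping gene at the other seven. Tac2 (ENSMUSG00000025400) lies on chromosome 10 from 127162448 to 127168823, Tacr3 (ENSMUSG00000028172) on chromosome 3 from 134491971 to 134597545, Trhr (ENSMUSG00000038760) on chromosome 15 from 44027681 to 44067458 and Prokr2 (ENSMUSG00000050558) on chromosome 2 from 132163469 to 132211183.

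The promoters of the 3 peptide genes whose counts did not overlap between the groups are given here. They are RefSeq sequences on GRCm38.p6, read 5′ to 3′ on the strand of the gene, with 250 bases before the start site and 50 after it. Tac1 is at chr6:7554811-7555110 on the plus strand, Trh at chr6:92244601-92244900 on the minus strand and Prok2 at chr6:99726343-99726642 on the minus strand. Capitals mark 3 motifs searched on both strands. These are the cyclic AMP response element half-site TGACG, which reads CGTCA where it lies on the other strand, the E-box CACGTG, which circadian clock factors bind, and the TATA box TATAAA, which reads TTTATA on the other strand.
Tac1: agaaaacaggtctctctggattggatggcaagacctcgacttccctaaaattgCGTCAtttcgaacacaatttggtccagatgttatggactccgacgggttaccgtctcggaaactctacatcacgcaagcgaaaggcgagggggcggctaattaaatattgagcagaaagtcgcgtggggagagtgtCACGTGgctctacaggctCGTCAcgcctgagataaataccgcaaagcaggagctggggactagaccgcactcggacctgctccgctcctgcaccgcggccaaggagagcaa
Trh: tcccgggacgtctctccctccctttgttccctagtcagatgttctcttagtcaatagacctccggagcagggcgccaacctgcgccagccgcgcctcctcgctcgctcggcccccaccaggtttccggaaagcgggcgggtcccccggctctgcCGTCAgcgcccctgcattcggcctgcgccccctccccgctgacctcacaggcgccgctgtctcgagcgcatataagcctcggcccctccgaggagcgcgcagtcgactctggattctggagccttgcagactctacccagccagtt
Prok2: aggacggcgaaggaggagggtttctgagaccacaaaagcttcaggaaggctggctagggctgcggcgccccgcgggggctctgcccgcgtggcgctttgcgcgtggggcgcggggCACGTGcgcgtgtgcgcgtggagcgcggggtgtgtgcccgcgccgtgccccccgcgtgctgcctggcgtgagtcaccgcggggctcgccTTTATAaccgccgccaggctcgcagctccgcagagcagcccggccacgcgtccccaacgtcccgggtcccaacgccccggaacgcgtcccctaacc
Tac1 held an E-box from -61 to -56 and a half-site from -197 to -193 and from -43 to -39, counted from the start site. Trh held a half-site from -96 to -92. Prok2 held an E-box from -135 to -130. It held the TATA motif on the other strand only, as TTTATA from -46 to -41. A promoter sequence was found for 7 of the 8 genes, the exception being Trhr. The half-site was in 4 of the 7, namely Tac1, Tacr1, Tacr3 and Trh, and in 20.8% of 32851 RefSeq promoters of the same length. The E-box was in 2 of the 7, Tac1 and Prok2, and in 7.15% of all promoters. The TATA motif, on either strand, was in 2, Tacr3 and Prok2, and in 13.6% of all. Of these 2 genes, Tacr3 alone had it on the strand of the gene. None of the 7 held the full palindrome TGACGTCA, found in 1.79% of all promoters. The base composition of the 3 printed promoters differed, with 54.0% G or C in Tac1, 67.0% in Trh and 73.7% in Prok2. These matches describe the letters of the window only.

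In saline mice the tachykinin precursors were by far the most abundant of the 8 genes, and Prok2 had the lowest mean. Levels between genes were compared per kilobase of exon. Tac1 had 327.5 ± 39.2 normalized counts per kilobase in saline mice and Tac2 250.1 ± 94.98 (SD, n = 3 each), and the ranges of these neighbours overlapped. Trh followed at 19.5 ± 3.71 and Trhr at 17.4 ± 5.73, again with overlapping ranges. The receptors Tacr1, Tacr3 and Prokr2 had 6.35 ± 1.99, 4.59 ± 5.03 and 4.01 ± 0.738 normalized counts per kilobase, in ranges that overlapped from each gene to the next. Prok2 had the lowest mean, 2.24 ± 0.859, and lay below Prokr2 in every saline mouse but within the range of Tacr3. The ranges of Tac2 and Trh, of Trhr and Tacr1 and of Prokr2 and Prok2 thus did not overlap among the saline mice. Prok2 rested on 2, 4 and 4 reads in saline mice 1, 6 and 10, and these ranges leave out the error of counting so few reads. The mean of each peptide gene was above that of its own receptor in saline mice except for Prok2, but the ranges of Trh and Trhr overlapped. In ketamine-treated mice Trh held the second place, at 346.0 ± 259 normalized counts per kilobase, where it overlapped Tac2 at 307.5 ± 57.6, and Tac1 was again first at 1797.5 ± 1274 (SD, n = 3 each). Below Tac2 came Tacr1 at 42.9 ± 26.3, Trhr at 41.3 ± 22.4, Tacr3 at 30.6 ± 35.7, Prokr2 at 26.0 ± 5.80 and Prok2 at 22.7 ± 5.93, and among these 5 each gene overlapped the next.

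**Figure D1:**
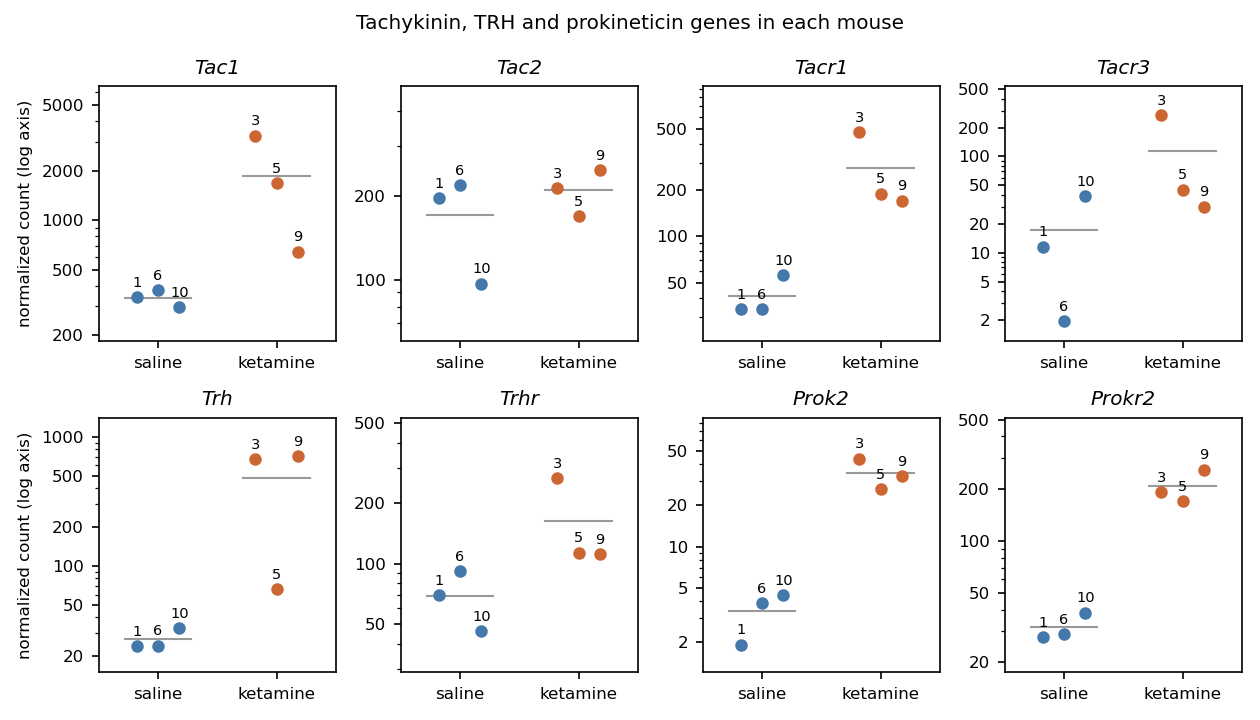
Normalized counts of the 8 genes on logarithmic vertical axes, each with its own scale, with a point for each mouse labelled by its number and a grey line at the group mean. The ketamine-treated mice lie above all saline mice for 6 genes, and the groups overlap for Tac2 and Tacr3.

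All 8 genes had a higher mean log2 value in ketamine-treated mice than in saline mice. For 6 of them, Tac1, Tacr1, Trh, Trhr, Prok2 and Prokr2, every ketamine mouse was above every saline mouse, which held for 5.69% of the 16127 genes tested, whose mean was 10 normalized counts or more. Since the genes were picked with this contrast in view, nothing is read from that difference in shares. The median log2 fold change of the 8 was 2.63, where that of all genes tested was -0.01. At an adjusted p under 0.05, limma called 0 of the 8 and 0% of all genes, and edgeR's quasi-likelihood test also called 0 of the 8 and 0% of all. Over all genes 937, or 5.81%, had an unadjusted p under 0.05 by limma. DESeq2, the package named in the study's methods, called 5 of the 8 higher, namely Tac1, Tacr1, Trh, Prok2 and Prokr2, and 0.899% of all genes tested higher. Prok2, with means of 3.39 normalized counts in saline and 34.3 in ketamine-treated mice, passed the filter of 10 only through the ketamine-treated mice. Its place in these counts is therefore no support. In simulated reads, in which genes varied independently of each other, DESeq2 made more false calls than limma or edgeR. The values are given in the closing section.

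Tac1, the gene of substance P, had 342, 377 and 296.5 normalized counts in saline mice 1, 6 and 10, against 3260, 1672 and 644 in ketamine-treated mice 3, 5 and 9. The saline mice were closely grouped, whereas the highest ketamine mouse had 5.06 times the count of the lowest. The lowest ketamine mouse, number 9, was still 1.71 times the highest saline mouse. The log2 fold change of Tac1 was 2.17 (standard error, SE, 0.523), and the means were 1859 ± 1318 against 338.6 ± 40.5 normalized counts (SD, n = 3 each). Without ketamine mouse 3 it was 1.62, and without ketamine mouse 9 it was 2.79. Ketamine mice 3, 5 and 9 stood in the same order for the summed striatal markers given above, and that sum was no higher in mouse 9 than in saline mice 1 and 6. All 13 of those markers had a positive log2 fold change, led by Syndig1l at 3.12, and 4 of them were above all saline mice in every ketamine mouse. The part of striatal tissue in the Tac1 difference was not tested.
The receptor of substance P, Tacr1, had 33.5, 33.8 and 56.0 normalized counts in saline mice 1, 6 and 10. Its values in ketamine-treated mice 3, 5 and 9 were 474, 189 and 170.4. Every ketamine mouse had at least 3.04 times the count of the highest saline mouse, and mouse 3 stood highest for the ligand and for the receptor. Ketamine mice 5 and 9 had similar counts of Tacr1, although their Tac1 differed. The log2 fold change of Tacr1 was 2.61 (SE 0.427) and ranged from 2.14 to 2.88 when any single mouse was omitted.

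The other tachykinin pair gave a different picture. Tac2, the gene of neurokinin B, had 195, 218 and 96.6 normalized counts in saline mice 1, 6 and 10, while ketamine-treated mice 3, 5 and 9 had 212, 168 and 246.6. The groups overlapped, and only saline mouse 10 stood apart from the rest, on the low side. The means were 170.1 ± 64.6 in saline mice and 209.1 ± 39.2 in ketamine-treated mice (SD, n = 3 each), and the log2 fold change of 0.36 was about as large as its SE of 0.331. Without saline mouse 10 it was 0.0012.
Its receptor Tacr3 was the most variable of the 8 genes among saline mice, with 11.5, 1.93 and 38.4 normalized counts in saline mice 1, 6 and 10, against 270.2, 45.2 and 29.9 in ketamine-treated mice 3, 5 and 9. Saline mouse 6 had 2 reads of it, to which counting error alone gives an exact 95% Poisson interval of 0.242 to 7.22 reads. Ketamine mouse 9 lay below saline mouse 10, and ketamine mouse 3 alone held most of the group's counts. The log2 fold change of Tacr3 was 2.69 (SE 1.11), and it was 1.74 without ketamine mouse 3 and 1.72 without saline mouse 6, but 3.31 without ketamine mouse 9 and 3.59 without saline mouse 10. Tac2 and Tacr3 were also the least alike in pattern of the 28 pairs among the 8 genes, with a root-mean-square difference of 2.08 between their centred log2 values over the 6 mice.

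**Figure D2:**
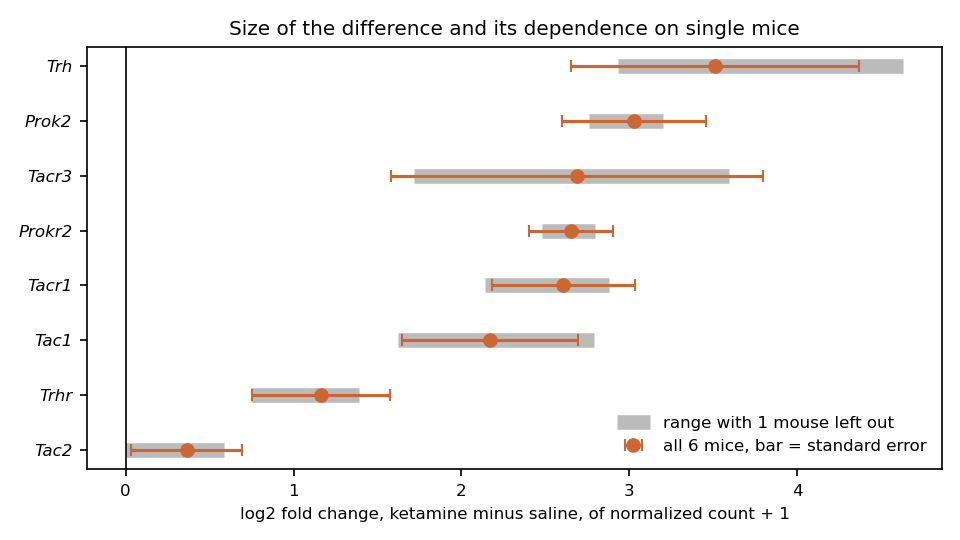
Log2 fold change of each gene, ketamine minus saline, on normalized count + 1 (horizontal axis), with a point and a SE bar for all 6 mice and a grey band for the range over the 6 fits that leave out 1 mouse. The bands of Prok2 and Prokr2 are the narrowest, and those of Trh and Tacr3 are the widest.

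Trh had the largest fold change of the 8 genes and the widest range among ketamine-treated mice, at 10.7 times from lowest to highest. It had 23.95, 24.1 and 32.9 normalized counts in saline mice 1, 6 and 10. Its values in ketamine-treated mice 3, 5 and 9 were 667, 65.9 and 704, so mice 3 and 9 were high, and mouse 5 stood at 2.0 times the highest saline mouse. The means were 478.9 ± 358 in ketamine-treated mice and 27.0 ± 5.14 in saline mice (SD, n = 3 each), a ratio of 17.7. The log2 fold change of Trh was 3.51 (SE 0.859). It was 4.63 without ketamine mouse 5, 2.97 without ketamine mouse 3 and 2.93 without ketamine mouse 9.
The order of ketamine-treated mice for Trh was not that of Tac1, in which mouse 9 was lowest. Mouse 9 was the highest in olfactory bulb markers, among them Eomes, a transcription factor of mitral and tufted cells, which had 1129 normalized counts there and at most 14.5 in a saline mouse. Mouse 3 was the highest in a list of septal and hypothalamic markers, with a summed level of 4465 normalized counts over 12 genes. The sum was 1183 and 2020 in ketamine-treated mice 5 and 9 and 538.5 to 684 in saline mice. Zic1 alone had 1984, 841 and 1717 normalized counts in ketamine-treated mice 3, 5 and 9, and 304 to 384 in saline mice. The mean log2 value of the tested genes, relative to saline mice, placed mouse 9 below mouse 5. It was 4.16, 0.93 and 0.59 in ketamine-treated mice 3, 5 and 9. In that list, Avp, the gene of vasopressin, had 569 normalized counts in mouse 3, 10.3 in mouse 5 and 23.6 in mouse 9, and at most 1.93 in a saline mouse. Of the 10 members of the list that were tested, 8 had a positive log2 fold change. The 2 negative ones were those of Pmch at -1.30, which was 0.22 without saline mouse 10, and Pomc at -0.03. Whether tissue from these regions contributed to Trh was not tested.
Trhr, the receptor of TRH, had 69.9, 91.7 and 46.1 normalized counts in saline mice 1, 6 and 10, against 267, 114 and 111 in ketamine-treated mice 3, 5 and 9. The groups were separate by a small margin, since the lowest ketamine mouse was at 1.22 times the highest saline mouse. Its log2 fold change was 1.16 (SE 0.410), and 0.75 without ketamine mouse 3. Mouse 9, the highest for the peptide, was the lowest ketamine mouse for the receptor.

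Prok2 and Prokr2 differed between the groups by much more than among the ketamine-treated mice. Prok2 had 1.92, 3.86 and 4.39 normalized counts in saline mice 1, 6 and 10, that is 2, 4 and 4 reads. In ketamine-treated mice 3, 5 and 9 it had 44.05, 26.3 and 32.6 normalized counts, that is 45, 28 and 36 reads. The lowest ketamine mouse had 6.0 times the count of the highest saline mouse. Summed over mice and scaled, 109 reads in ketamine against 10 in saline gave a ratio of 10.2. Its exact 95% interval of 5.35 to 21.9 covers the counting of reads only and not the spread between mice. Prok2 was picked with this contrast in view, so the interval is no support for a difference. The log2 fold change of Prok2 was 3.03 (SE 0.429) and ranged from 2.76 to 3.20 on omitting any single mouse. A pseudocount of 1 weighs on a gene this low. The log2 fold change was 2.22 with a pseudocount of 5 and 3.35 with a pseudocount of 0.1. It was 3.32 by edgeR and 3.36 by DESeq2.
The receptor Prokr2 had 27.8, 28.95 and 38.4 normalized counts in saline mice 1, 6 and 10, against 191, 169 and 257 in ketamine-treated mice 3, 5 and 9. Its highest ketamine mouse had 1.52 times the count of the lowest. The group means were 205.9 ± 45.9 and 31.7 ± 5.85 normalized counts (SD, n = 3 each), 6.49 times apart. With a log2 fold change of 2.65 it had the smallest SE of the 8, at 0.249, and omitting any single mouse kept it from 2.48 to 2.79. Prok2 and Prokr2 were the pair most alike among the 28, with a root-mean-square difference of 0.37 on the log2 scale. Olfactory bulb markers were also higher in every ketamine library than in any saline library for 9 of the 11 genes of their list, and all 11 had a positive log2 fold change, with a median of 2.66. Their summed level was lowest in mouse 5 and highest in mouse 9, the order found for Prokr2. Their part in the Prok2 and Prokr2 differences was not tested.

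**Figure D3:**
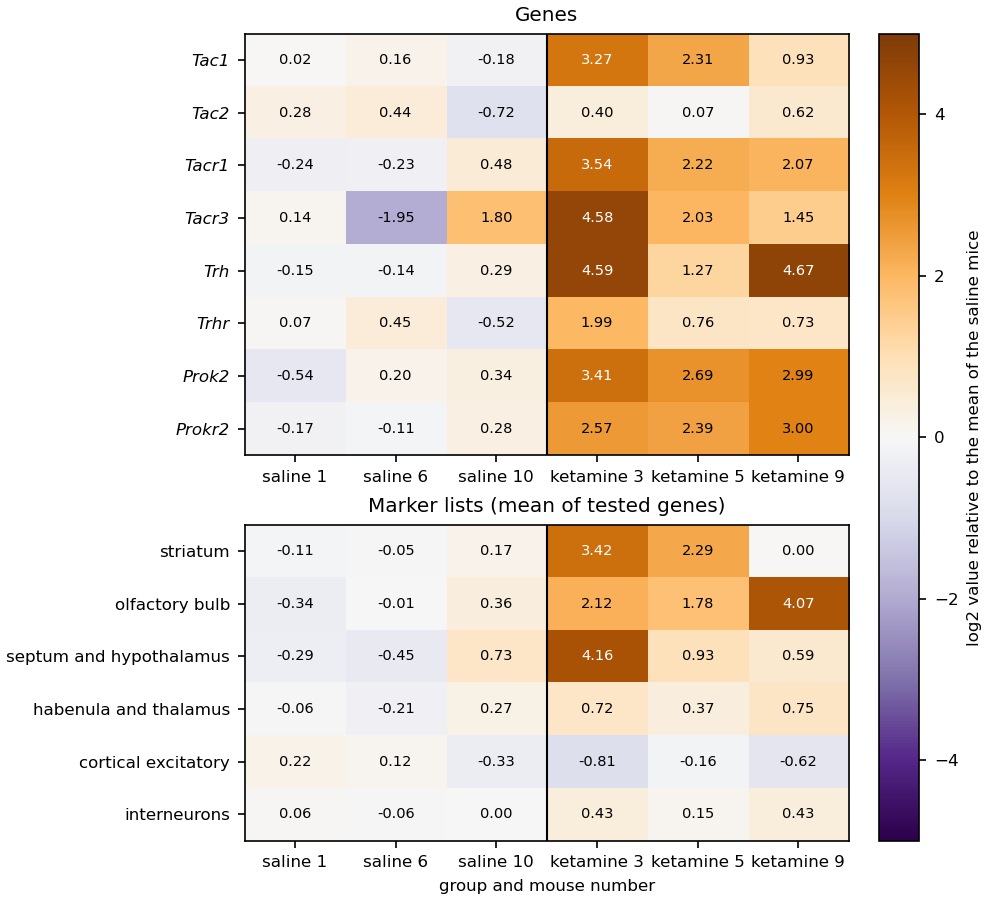
Log2 value of each gene (upper panel) and mean log2 value of 6 marker lists (lower panel) in each of the 6 mice, relative to the saline mean, with the value printed in each cell and orange for higher values. Ketamine mice 3 and 5 are high in the mean of striatal markers, at 3.42 and 2.29, and mouse 9 is not, at 0.00, while olfactory bulb markers are highest in mouse 9, at 4.07. The striatal mean of mouse 9 joins opposite differences. Penk, at 3377 normalized counts, was above all saline mice there, and Pde10a, at 764, was below all of them.

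Across the 8 genes, the order of the ketamine-treated mice was not the same. Ketamine mouse 3 was the highest of its group for 5 genes and mouse 9 for 3, and mouse 5 was the highest for 0. Each of the 3 ketamine-treated mice was above all saline mice for 7 genes, the exception being Tac2 in mice 3 and 5 and Tacr3 in mouse 9. Among saline mice, mouse 10 was the highest for 5 genes, namely Tacr1, Tacr3, Trh, Prok2 and Prokr2, and the lowest for Tac1, Tac2 and Trhr. Of the 9 markers of cortical excitatory neurons, 8 had a negative log2 fold change. The largest was that of Neurod6, a transcription factor of these neurons, at -1.35 (adjusted p = 0.368 by limma, 0.00459 by DESeq2). Of 8 tested habenular and thalamic markers 4 were positive, and of 13 interneuron markers 6 were. The largest log2 fold change in the habenular list was that of Chrnb4, a nicotinic receptor subunit gene, at 4.25 (adjusted p = 0.210 by limma, 0.000245 by DESeq2), while Pou4f1, a defining transcription factor of the medial habenula, had at most 3.29 normalized counts in any mouse. The largest among interneuron markers was that of Calb2, the gene of calretinin, at 2.39 (adjusted p = 0.587 by limma, 0.0907 by DESeq2). Of 4 tested blood and choroid plexus markers 2 were positive, and the largest log2 fold change was that of Ttr, the transthyretin gene of the choroid plexus, at -1.69 (adjusted p = 0.999 by limma, 0.649 by DESeq2). Ttr had 2.87, 115.8 and 2421 normalized counts in saline mice 1, 6 and 10, and its log2 fold change was 0.59 without saline mouse 10. The part of any of these in the differences of the 8 genes was not tested.

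The genes most like each of the 8 in pattern were found by the root-mean-square difference of centred log2 values over the 6 mice, among all 16127 genes tested. The likeness was not tested and is given as a description. Nearest to Tac1 was Penk, the gene of the enkephalin precursor, which is abundant in the striatal indirect pathway and belongs to the striatal list, at a difference of 0.24. Penk had 12073, 5693 and 3377 normalized counts in ketamine-treated mice 3, 5 and 9, the order of Tac1, and 916 to 1359 in saline mice. After Penk came 2610028E06Rik and Scube3, at a difference of 0.38 each. Nearest to Tacr1 were Clec12a (0.28), C78197 (0.33) and Pi16 (0.38), all low in saline mice, with 1.93 to 6.76 normalized counts. Tac2 was closest to 4930579K19Rik (0.07), 6330549D23Rik (0.09) and Tgtp1 (0.10), genes that likewise were lowest in saline mouse 10.
The difference grows with the spread of a gene over the 6 mice. As a root mean square about the mean, that spread was 2.09 for Trh, 1.98 for Tacr3, 0.77 for Trhr and 0.44 for Tac2. A larger difference for Trh or Tacr3 is therefore not read as a lack of like genes. The nearest gene to Trh was at 0.67. That gene was Gal, which encodes the neuropeptide galanin. It had 196, 5.64 and 74.3 normalized counts in ketamine-treated mice 3, 5 and 9 and 0.96 to 4.39 in saline mice, high in mice 3 and 9 as Trh was. The next were A230065H16Rik (0.75) and Fam19a3 (0.85). Nearest to Tacr3 were H2-Q2 at 0.57, Pappa at 0.71 and Baiap3 at 0.72. Trhr was nearest to Hap1, the gene of a huntingtin-associated protein, at 0.21, followed by ENSMUSG00000093598 (0.24) and Grb7 (0.31).
For Prok2, Il20ra and the serotonin receptor gene Htr1d were both at 0.29 or 0.30, and Prokr2 was the third nearest of all genes, at 0.37. Prokr2 was itself nearest to Pcp4l1 (0.30), a member of the olfactory bulb list, with 6772, 5137 and 9372 normalized counts in ketamine-treated mice 3, 5 and 9 and 1236 to 2235 in saline mice. Slco5a1 (0.31) and Cacng5 (0.32) followed.

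The other genes of these peptide pathways had log2 fold changes on both sides of 0. Of the 30 genes in 3 lists of family relatives, peptide processing or breakdown, and signalling below the receptors, 26 were tested, and 9 had a positive and 17 a negative log2 fold change, with a median of -0.12. None of the 26 passed an adjusted p of 0.05 in limma or edgeR, where 0% of all genes did, or in DESeq2, where 1.13% did, so these counts are near those of all genes. At an unadjusted p under 0.05 limma found 1 of the 26, Trhde, against 5.81% of all genes. The smallest adjusted p was 0.730 by limma, 0.693 by edgeR and 0.368 by DESeq2.
Among the 5 family relatives, only Trhr2, the second TRH receptor of rodents, had enough counts to be tested. It had 46.0, 38.6 and 40.6 normalized counts in saline mice 1, 6 and 10, against 77.3, 92.2 and 32.6 in ketamine-treated mice 3, 5 and 9, so the groups overlapped (log2 fold change 0.55, SE 0.401, adjusted p = 0.999 by limma). Tacr2, the preferred receptor of neurokinin A, had 2.20 to 8.69 normalized counts among saline mice and 0 to 2.94 in ketamine-treated mice. Tac4, the gene of hemokinin, was at 0 in the 3 saline mice and in ketamine mouse 5, and at 1.96 and 0.91 in ketamine-treated mice 3 and 9, which is too few reads for a fold. Prok1 had at most 0.97 normalized counts in any mouse, and Prokr1, the other prokineticin receptor, at most 4.39.

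**Figure D4:**
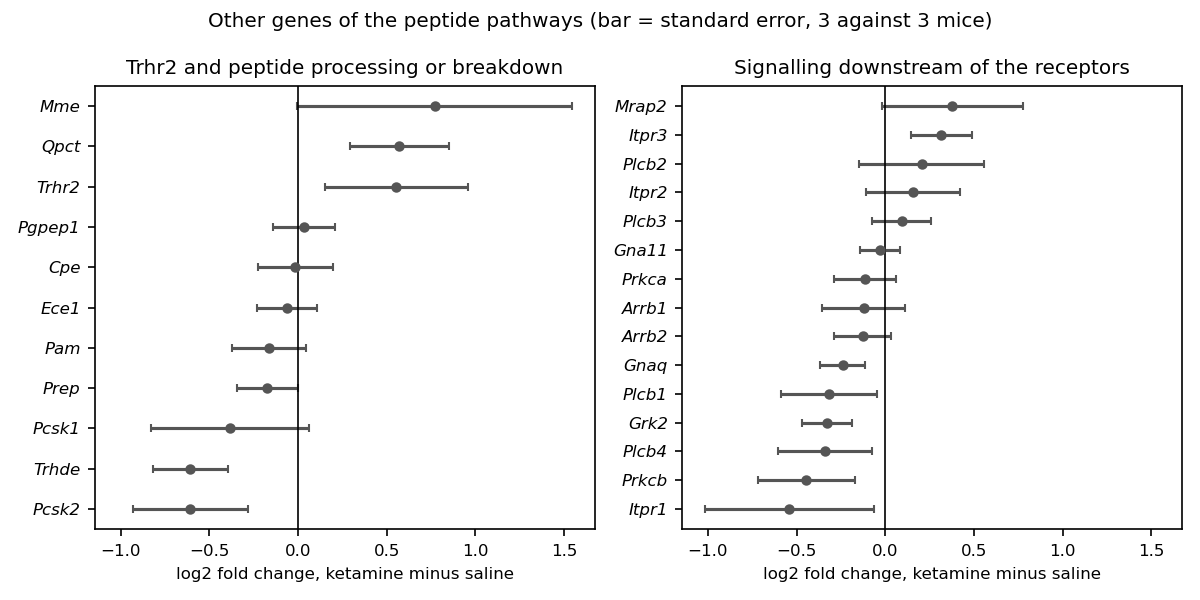
Log2 fold change, ketamine minus saline, of the 26 tested pathway genes outside the 8 (horizontal axis), with SE bars from limma over 3 saline and 3 ketamine-treated mice. The points lie between -0.61 and 0.77, on both sides of 0.

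In the list of 10 processing and breakdown genes, 3 had a positive and 7 a negative log2 fold change, and the 3 largest were those of Mme, Pcsk2 and Trhde. Mme, the gene of neprilysin, which degrades substance P, had 643, 353 and 63.5 normalized counts in ketamine-treated mice 3, 5 and 9 and 102 to 174 in saline mice, an order among the ketamine-treated mice like that of Tac1 (log2 fold change 0.77, SE 0.776, adjusted p = 0.999 by limma). Pcsk2, the gene of a prohormone convertase, had a log2 fold change of -0.61 (SE 0.323, adjusted p = 0.969 by limma). Trhde encodes the ectoenzyme that degrades TRH. It had 978, 798 and 1279 normalized counts in saline mice 1, 6 and 10, against 758, 671 and 556 in ketamine-treated mice 3, 5 and 9, so that every ketamine mouse was below every saline mouse. Its log2 fold change was -0.61 (SE 0.209, adjusted p = 0.730 by limma, 0.368 by DESeq2).
Of 15 signalling genes, 5 had a positive and 10 a negative log2 fold change. The largest in size were those of Itpr1, which encodes a calcium release channel of the endoplasmic reticulum, and Prkcb, which encodes a protein kinase C, at -0.54 and -0.44, and of Mrap2, which encodes an accessory protein of G protein-coupled receptors, at 0.38 (adjusted p = 0.999 by limma for each). The groups overlapped for all 3, and the mean of Mrap2 rested on ketamine mouse 3, with 393 normalized counts where the other 5 mice had 135 to 161. Of the 15 genes, 2 were below all saline mice in every ketamine mouse, as were 4.66% of all genes tested, and 1 was above, as were 5.69%. The 2 were Gnaq, the gene of the Gq subunit itself, with a log2 fold change of -0.24, and Grk2, which encodes a kinase of activated receptors, at -0.33 (adjusted p = 0.969 and 0.865 by limma). The 1 above was Itpr3, which encodes another calcium release channel, at 0.32 (adjusted p = 0.971 by limma). These 3 genes were named after their values were seen.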

How the data were processed

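Total RNA from the PLc of 3 saline and 3 ketamine-treated mice was sequenced as separate libraries, 1 per mouse, and groups and mouse numbers were taken from the sample titles. Per the study's methods, the authors mapped read pairs with Tophat 2.0.11 on the mm9 genome, counted them per gene with HTSeq and used DESeq2; the annotation, strand setting and filter are not given in the sources used here. The deposited signal of a gene is its read count after the authors' division by library size factors. Reads were recovered from it, since 100.0% of the values of each library were whole reads (within 0.1 of a read). Table columns were matched to samples by mouse number.

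Log2(normalized count + 1) was fitted with limma 3.58.1 (R 4.3.3, trended prior variance) in 16127 genes whose mean was 10 or more, two-sided, with Benjamini-Hochberg adjustment over all of them and a threshold of 0.05. A fold change on this scale understates that of low genes. The recovered reads were also tested with edgeR 4.0.16 and DESeq2 1.42.0. The other alternatives were pseudocounts of 0.1 and 5, no filter, a filter of 100, recomputed size factors, upper-quartile scaling, no trend, and each mouse left out. Nothing says whether the mice shared a litter or batch. The scripts were tested on simulated reads. Lists were matched by symbol, of which 1 of 111 entries was not matched, and gene models are GENCODE M1 on mm9. The members and lists were chosen with earlier results of these data known. Named are the 8 genes, their 3 nearest genes each, the family relatives, the 3 largest changes in the other pathway lists and leading list markers. Any other gene was named after its values were seen, namely Pou4f1, Pde10a, Zic1, Pmch, Pomc, Gnaq, Grk2, Itpr3 and Cdhr1. A single entry of the signalling list is not reported here and is in none of the counts over that list.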

Additional observations from a re-analysis of the deposited data

How the results depend on the processing

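The number of genes called by limma was 0 under every alternative of pseudocount, filter, scaling and trend, and with edgeR. It was 182 with DESeq2, of which 145 were higher and 37 lower, and between 0 and 1 with each mouse left out. The gene called was Trh without ketamine mouse 5 and Cdhr1, a gene of the olfactory bulb list, without ketamine mouse 9. Trh is among the 8 genes picked with this contrast in view, and mouse 5 was its lowest ketamine mouse. Nothing is read from that call of Trh. In simulated reads with 200 genes changed 2-fold, DESeq2 recovered 105 with 54 false calls, limma 17 with 1 and edgeR 17 with 0. At 4-fold, DESeq2 recovered 180 with 59 false calls, limma 168 with 21 and edgeR 165 with 19. At 8-fold, the false calls were 51, 11 and 14 in the same order of tests. Genes varied independently in these reads, so differences shared by many genes, such as those of the marker lists, were not simulated. The cause of the difference between the tests in the real data was not tested. The pathway genes called stayed at 0 under every alternative. Of 118 alternative log2 fold changes of the 8 genes, 0 changed sign and 117 lay within 1 SD (between replicates) of the value reported. The exception was Prok2 with a pseudocount of 5. That share is no measure of stability. The filter and trend settings leave a fold change as it is, and omitting 1 of the 3 mice of a group cannot move it by 1 SD. Tac2 lay within 1 SD although it fell from 0.36 to 0.0012 without saline mouse 10. With a filter of 100 normalized counts, Tacr3 and Prok2 were not tested and gave no value. Leaving out 1 mouse moved the fold of Tac1, Tacr3 and Trh by over 1.5 times, Tac1 without ketamine mouse 9, Trh without ketamine mouse 5, and Tacr3 without ketamine mouse 3 or saline mouse 6 (lower) or without ketamine mouse 9 or saline mouse 10 (higher). For Prok2, Tacr3 and other genes with few reads in saline mice, the depth limits the precision of the fold. No paired analysis was made, because the groups are of different mice and no pairing between them is given.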
